A study of Mus musculus with 236 samples.

Results

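DNA methylation in mouse cells is written, copied, removed and read by a small set of enzymes and cofactors, and 9 of their genes are described here: Dnmt1, Uhrf1, Dnmt3a, Dnmt3b, Dnmt3l, Tet1, Tet2, Tet3 and Mbd2. They were chosen by name, and all 9 of 9 were found among the 39300 genes of the deposited expression table. The cells are female embryonic stem cells from a cross of a C57BL/6J mother with a CAST/EiJ father, profiled with HiRES, which reads RNA and chromatin contacts from the same single cell. Differentiation was started by taking away LIF and 2i, the Gsk3 inhibitor CT99021 and the MEK inhibitor PD0325901, in medium with serum on fibronectin-coated plates, and cells were taken at day 2.5 or at day 0.5. Both groups had therefore left LIF and 2i, and the study of which these cells are a part concerns early random X inactivation. Of the libraries, 49.2% are of day 2.5 and 50.8%, or 120, of day 0.5. They hold 1 or 2 cells each, and no cell name occurs in more than 1 library. The expression table holds 406 of the 471 cells, 50.5% of them from day 2.5 and 49.5% from day 0.5. All cells come from 1 line and no label tells cultures apart, so each day was treated as 1 sample and no test between the days was made.

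Dnmt1, guided by Uhrf1 to newly copied DNA, restores methylation on the daughter strand after replication. Dnmt3a and Dnmt3b write methylation on unmethylated CpG sites, and Dnmt3l, which has no catalytic activity, helps them. The Tet enzymes oxidise methylcytosine, which leads to its loss, and Mbd2 binds methylated CpG and brings the NuRD repressor complex. Embryonic stem cells held in 2i have little DNA methylation, and the genome gains it when they leave the naive state toward the formative state of the early post-implantation epiblast.

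The promoters of Dnmt3b, Tet1 and Tet2 are printed from RefSeq on GRCm38.p6. These 3 genes differ most between the days in their share of Dnmt and Tet UMIs, given below. Each window runs from 250 bases before to 50 bases after a transcript start, in the direction of the gene. CpG sites, the substrate of these enzymes, are in capitals. Dnmt3b lies on the plus strand at chr2:153649199-153649498, Tet1 on the minus strand at chr10:62887275-62887574 and Tet2 on the minus strand at chr3:133544341-133544640.
Dnmt3b: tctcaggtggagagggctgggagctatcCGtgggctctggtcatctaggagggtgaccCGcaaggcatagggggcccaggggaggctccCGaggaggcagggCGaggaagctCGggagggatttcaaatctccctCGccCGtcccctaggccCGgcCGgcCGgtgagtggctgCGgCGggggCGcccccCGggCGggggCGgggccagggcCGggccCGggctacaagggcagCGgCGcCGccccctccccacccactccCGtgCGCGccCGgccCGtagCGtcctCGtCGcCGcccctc
Tet1: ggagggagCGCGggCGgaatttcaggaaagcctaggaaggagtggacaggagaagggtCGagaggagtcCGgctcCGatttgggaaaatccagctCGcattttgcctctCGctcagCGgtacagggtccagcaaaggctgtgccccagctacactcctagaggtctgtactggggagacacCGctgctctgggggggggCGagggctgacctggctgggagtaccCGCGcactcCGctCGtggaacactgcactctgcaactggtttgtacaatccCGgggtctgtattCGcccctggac
Tet2: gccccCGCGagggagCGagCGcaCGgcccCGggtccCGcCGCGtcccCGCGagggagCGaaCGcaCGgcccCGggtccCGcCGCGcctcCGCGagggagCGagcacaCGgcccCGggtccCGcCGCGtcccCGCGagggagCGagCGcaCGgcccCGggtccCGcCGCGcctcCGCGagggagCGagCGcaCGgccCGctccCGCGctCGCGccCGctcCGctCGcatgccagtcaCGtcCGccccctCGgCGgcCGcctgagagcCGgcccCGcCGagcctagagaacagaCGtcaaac

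The Tet2 window holds 57 CpG sites, more than 99.8% of the 32851 promoters of this length in the table, whose median is 7. The Dnmt3b window holds 30 and the Tet1 window 17, more than 88.3% and 68.6% of all promoters. In all, 15 windows of 8 of the 9 genes were matched. They were searched on both strands for an Esrrb site (AAGGTCA), a TCF and LEF core (CTTTGAT), a STAT site (TTCNNNGAA) and a GC box (GGGCGG). The Dnmt3b window holds 4 GC boxes, and the Tet1 and Tet2 windows hold 1 each. A GC box is in 35.7% of all promoters. The Esrrb and TCF letters, in 4.72% and 3.73% of all promoters, are in none of the 15 windows, and the STAT letters, in 8.30%, are in 1 window of Dnmt3l. The first Dnmt3l window, at chr10:78042037-78042336, holds 6 CpG sites.

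RNA molecules were counted in each cell by unique molecular identifiers (UMIs). The median cell held 15796 UMIs at day 2.5 and 13670 at day 0.5, and the lowest cells held 529 and 501. Exons gave 24.2% of gene UMIs at day 2.5 and 26.3% at day 0.5, so most UMIs come from unspliced RNA and long genes weigh more. The cells fall into 3 batches, named so here without knowing what they stand for, and batch 2 holds both days, batch 3 only day 2.5 and batch 1 only day 0.5. Of 8 stem cell markers none was called higher and 3 lower, by the rule given below. Cdh1 was at 459 CPM at day 2.5 and 355 CPM at day 0.5 (UMIs scaled to a total of 1000000), Pou5f1 at 13.5 and 31.3 CPM and Sox2 at 7.06 and 32.8 CPM. Of 11 naive markers, 10 reached 20 UMIs over both days, and all 10 were lower at day 2.5. The naive markers summed to 80.3 CPM at day 2.5 against 1177 CPM at day 0.5. Of 7 formative markers, 6 reached 20 UMIs, and 5 were higher. Over all genes with enough UMIs, 20.7% were called higher and 24.6% lower. Some markers reached 20 UMIs only through 1 day, such as Klf2, with 0 and 51 UMIs, and Pou3f1, with 31.5 and 4. Foxd3, a formative marker below 20 UMIs, had 5 and 11. Of 8 fibroblast markers only 2 reached 20 UMIs, and both were lower at day 2.5. The summed level was 89.6 and 108.1 CPM in the batches of day 2.5 and 409 and 515 CPM in those of day 0.5. Most of it was Fn1, at 88.98 and 449 CPM, while Postn was at 0 and Col1a1 had 0 UMIs at day 2.5 and 1 at day 0.5. Of 6 blood and endothelial markers 1 reached 20 UMIs, Pecam1, which embryonic stem cells also express, at 43.8 CPM at day 2.5 and 219.5 CPM at day 0.5, and Lyz2 was at 0. Among the markers of primitive endoderm, trophectoderm and neurons, Dab2 and Map2 were higher at day 2.5. Dab2 was at 26.99 CPM at day 2.5 and 8.66 CPM at day 0.5, and Map2 at 135.9 and 76.8 CPM. Gata3, with 13 and 33.5 UMIs, and Pax6, with 9 and 16 UMIs, were called lower. The ratio of Pax6 was 0.469 (0.183 to 1.13), an interval that includes 1. Gata4, a marker of primitive endoderm, was called neither, at 13.5 CPM at day 2.5 and 12.8 CPM at day 0.5. It was found in 11.7% and 14.9% of cells. Eomes, of trophectoderm, was also called neither, on 9 and 13 UMIs. Sox7 and Foxa2, markers of primitive endoderm, were at 0. The part of these markers in the results below was not tested.

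Levels were compared between the days by summing the UMIs of all cells of a day. A gene was called higher at a CPM ratio of at least 1.5, day 2.5 over day 0.5, and lower at its inverse. It also needed 20 UMIs and the same direction in batch 2 and in batch 3 over batch 1. Of the 9 genes, 3 were called higher, 5 lower and 1 neither. Over the 13777 genes with enough UMIs, 20.7% were called higher and 24.6% lower. The levels of the 2 batches of one day did not overlap those of the other day for 8 of the 9 genes, against a background of 67.8%. The median log2 change, with 5 CPM added to both levels, was -0.56 over the 9 genes and -0.06 over all genes tested. All intervals are 95% and cover counting error only, not differences between cells or cultures.

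The plot of levels by day and batch shows these values for each gene, and they are given below in the order of the genes' roles.

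**Figure D1:**
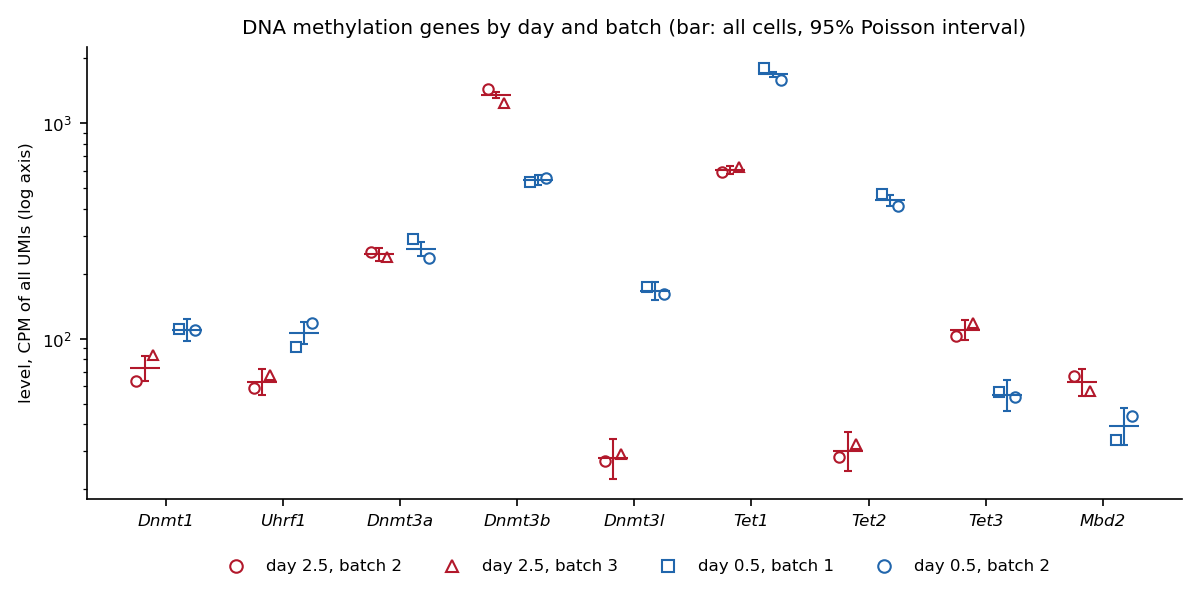
Summed level of each gene in CPM (log axis). Open symbols are the 4 day and batch groups, and horizontal bars are all cells of a day with 95% exact Poisson intervals, day 2.5 left of day 0.5. Symbols of the days overlap only for Dnmt3a, and Tet2 and Dnmt3l are furthest apart, at 30.1 and 27.9 CPM at day 2.5 against 437 and 166.8 CPM at day 0.5.

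Both maintenance genes were called lower at day 2.5. Dnmt1 (chr9:20907206-20959888) had 63.4 CPM in batch 2 and 84.3 CPM in batch 3 at day 2.5, against 110.4 CPM in batch 1 and 109.4 CPM in batch 2 at day 0.5. Every day 2.5 batch was below both day 0.5 batches. The ratio of 0.661 (0.554 to 0.788) lies just past the threshold, and the call is lost under median-ratio scaling. With 5 CPM added, its log2 change of -0.56 was -0.37 for cells thinned to 5000 UMIs and -0.42 with equal weight of cell cycle classes. Uhrf1 (chr17:56303337-56323486) had 59.2 CPM in batch 2 and 67.7 CPM in batch 3 at day 2.5, against 91.7 CPM in batch 1 and 118.02 CPM in batch 2 at day 0.5. Its groups did not overlap either, with a ratio of 0.594 (0.493 to 0.714). Its log2 change of -0.71 was -0.47 for thinned cells and -0.41 for batch 3 over batch 1.

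The 3 genes of de novo methylation each took another course. Dnmt3b (chr2:153649411-153687730) had 1439 CPM in batch 2 and 1239 CPM in batch 3 at day 2.5, against 529.8 CPM in batch 1 and 556 CPM in batch 2 at day 0.5. The days were well separated, and the ratio was 2.48 (2.34 to 2.64). Dnmt3a (chr12:3801559-3914443) had 251 CPM in batch 2 and 239.5 CPM in batch 3 at day 2.5, against 289.99 CPM in batch 1 and 237.4 CPM in batch 2 at day 0.5. Its levels overlapped between the days, and the ratio was 0.941 (0.849 to 1.04). Dnmt3l (chr10:78042287-78063622) had 27.04 CPM in batch 2 and 29.1 CPM in batch 3 at day 2.5, against 173.6 CPM in batch 1 and 161.06 CPM in batch 2 at day 0.5. It was 5.97 times (4.75 to 7.58) as abundant at day 0.5. The cofactor was thus called lower while one of the enzymes it helps was called higher and the other neither.

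Dnmt3l overlaps Aire, a transcriptional regulator best known from the thymus, by 1324 bases, and whether strand was used in the counting was not stated. Aire had 7 UMIs at day 2.5 (2.82 and 1.42 CPM in batches 2 and 3) and 190.5 UMIs at day 0.5 (84.3 and 61.1 CPM in batches 1 and 2). Its ratio was 0.0306 (0.0122 to 0.0643), so Aire was lower together with Dnmt3l, and reads of one cannot be told from reads of the other where they overlap. Aire was detected in 3.41% of day 2.5 cells and 47.8% of day 0.5 cells.

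Among the erasers, Tet1 and Tet2 were called lower and Tet3 higher. Tet1 (chr10:62804570-62887469) had 594 CPM in batch 2 and 621 CPM in batch 3 at day 2.5, against 1805 CPM in batch 1 and 1574 CPM in batch 2 at day 0.5. The days did not overlap, and the ratio was 0.361 (0.342 to 0.381). Tet2 (chr3:133463677-133545136) had 28.2 CPM in batch 2 and 32.6 CPM in batch 3 at day 2.5, against 469 CPM in batch 1 and 410.3 CPM in batch 2 at day 0.5. With 96 UMIs at day 2.5 and 1161 at day 0.5 it showed the largest difference of the 9 genes, 14.5 times (11.8 to 18.1) as abundant at day 0.5. Tet3 (chr6:83362373-83457208) had 103.1 CPM in batch 2 and 118.7 CPM in batch 3 at day 2.5, against 56.4 CPM in batch 1 and 53.5 CPM in batch 2 at day 0.5. It was higher in both day 2.5 batches than in either day 0.5 batch, with a ratio of 2.01 (1.65 to 2.45).

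The reader Mbd2 (chr18:70568225-70629134) had 67.05 CPM in batch 2 and 57.4 CPM in batch 3 at day 2.5, against 33.7 CPM in batch 1 and 43.7 CPM in batch 2 at day 0.5. The groups did not overlap, and the ratio of 1.60 (1.26 to 2.05) lies just past the threshold. Its log2 change of 0.62 was 0.40 with equal weight of cell cycle classes. At a stricter ratio of 2, Dnmt1, Uhrf1 and Mbd2 were no longer called, and 3 genes were called lower and 2 higher.

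Levels of the 9 genes were ranked per kilobase of gene, since most UMIs are unspliced. The shares of Dnmt and Tet UMIs given below are not per kilobase unless said. The length is the full annotated span. Some genes have further starts inside it, such as Dnmt3a, with a window at chr12:3891494-3891793, and Dnmt3l, at chr10:78055085-78055384. Which starts were in use was not tested, and a shorter span would give a higher value per kb and could change the order. At day 2.5 Dnmt3b led with 35.2 CPM per kb (34.2 to 36.3), followed by Tet1 at 7.31 and Uhrf1 at 3.12 and Dnmt3a at 2.18. Dnmt1, Dnmt3l, Tet3 and Mbd2 lay between 1.03 and 1.38 CPM per kb. Each interval in that run overlapped that of its neighbour, so their order was not settled. Tet2 was last at 0.370 (0.300 to 0.452). At day 0.5 Tet1 led with 20.3 CPM per kb (19.7 to 20.9), ahead of Dnmt3b at 14.2, Dnmt3l at 7.82, Tet2 at 5.37 and Uhrf1 at 5.26. The intervals of Tet2 and Uhrf1 overlapped, as did those of Dnmt3a at 2.32 and Dnmt1 at 2.09. Mbd2 at 0.643 and Tet3 at 0.578 were lowest, also with overlapping intervals. Tet2 was thus ranked 9 of 9 at day 2.5 and 4 of 9 at day 0.5.

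The share of cells with a UMI of each gene depends on depth, so it was also taken at an equal depth of 5000 UMIs per cell, which 7 cells of either day did not reach. Tet2 was found in 26.3% of day 2.5 cells and 93.03% of day 0.5 cells, and after thinning in 13.6% (9.18% to 19.2%) and 83.5% (77.5% to 88.4%). Dnmt3l was found in 25.4% and 77.1%, and after thinning in 8.59% (5.08% to 13.4%) and 49.5% (42.2% to 56.7%). Both were therefore detected in fewer cells at day 2.5 at equal depth. A lower level in every cell also gives fewer cells with a UMI, so the number of expressing cells was not told apart from the level. Tet1 remained widespread, with 97.1% and 99.5% of cells, and 86.9% and 100% after thinning. Dnmt3b was in 97.6% of day 2.5 cells and 92.5% of day 0.5 cells, and in 92.9% (88.4% to 96.1%) and 81.96% (75.8% to 87.1%) after thinning. The median cell held 18 UMIs of Dnmt3b at day 2.5 and 6 at day 0.5.

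Tet3 was in 33.8% of thinned day 2.5 cells and 18.6% of thinned day 0.5 cells, and Mbd2 in 27.3% and 15.98%. The intervals of Tet3 did not overlap, while those of Mbd2 (21.2% to 34.04% and 11.1% to 21.9%) did. For Dnmt1 the thinned shares of 29.3% and 37.1% had overlapping intervals, as did 26.3% and 37.6% for Uhrf1 and 62.1% and 63.9% for Dnmt3a. For comparison, the markers of fibroblasts and blood other than Fn1 and Pecam1 were each in at most 4.88% of day 2.5 cells (Dcn) and 5.97% of day 0.5 cells (Thy1) before thinning. All 9 methylation genes were above that level at both days. Fn1, left out here, was in 51.2% of day 2.5 and 90.5% of day 0.5 cells, and Pecam1 in 44.4% and 82.6%. Such markers cannot measure stray RNA of genes that the stem cells themselves express. The 10% of cells with the most Tet2 UMIs held 64.6% of them at day 2.5, against 27.2% at day 0.5. The mean cell held 0.468 Tet2 UMIs at day 2.5 and 5.78 at day 0.5. Few UMIs raise this share by sampling alone, and an uneven spread between cells was not tested.

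**Figure D2:**
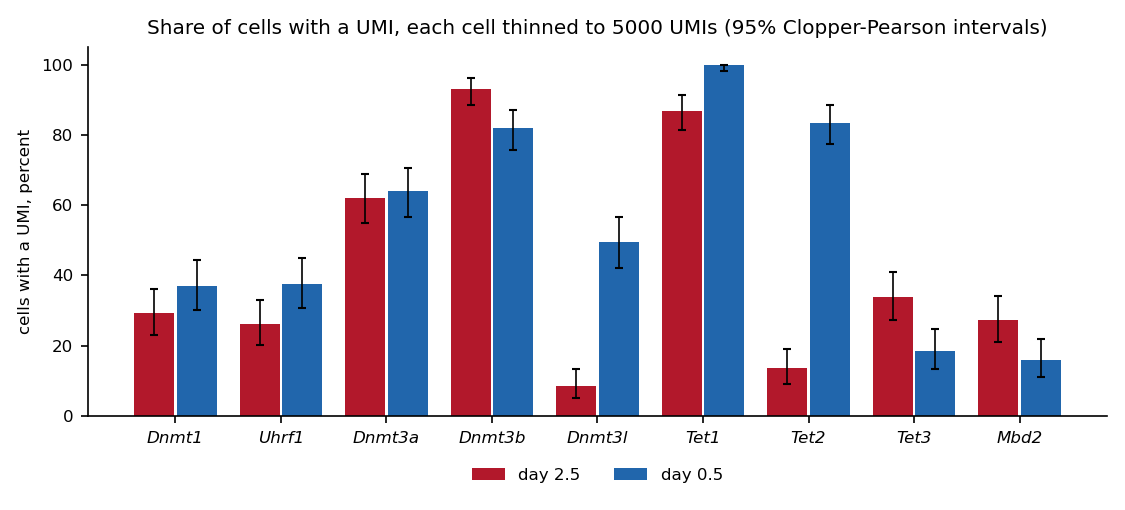
Percent of cells with at least 1 UMI of each gene after every cell was thinned to 5000 UMIs, day 2.5 left of day 0.5, with 95% Clopper-Pearson intervals. Tet2 stands at 13.6% and 83.5% and Dnmt3l at 8.59% and 49.5%, while the intervals of Dnmt3a, at 62.1% and 63.9%, overlap.

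To describe the balance of writers and erasers, the UMIs of Dnmt1, Dnmt3a and Dnmt3b were taken as a share of those of the 3 Dnmt and 3 Tet genes. This is no molar ratio, since longer genes give more UMIs. The share amounted to 69.1% (68.1% to 70.1%) of UMIs in day 2.5 cells and 29.7% (28.7% to 30.7%) in day 0.5 cells, a difference of 39.5 percentage points. It was 70.7% and 66.9% in batches 2 and 3 at day 2.5, against 28.5% and 30.7% in batches 1 and 2 at day 0.5. With UMIs divided by the full annotated gene length it was 81.4% at day 2.5 and 41.5% at day 0.5, with the same limit from inner starts. Without Dnmt3b the shares were 29.9% and 14.6%. No share was taken without Tet1 or Tet2, which also differed between the days. How much of the difference rests on Dnmt3b and how much on the Tet genes was therefore not tested.

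Single cells showed the same order. Cells with fewer than 10 such UMIs, 15 at day 2.5 and 9 at day 0.5, were left out. The Dnmt share then had a median of 68.8% over 190 day 2.5 cells (lowest 9.52%, highest 100%) and 28.6% over the day 0.5 cells (lowest 0%, highest 75.3%). It exceeded 50% in 84.7% of day 2.5 cells and in 9.38% of day 0.5 cells, 18 in all, so the days overlapped in their tails. The interquartile ranges, 56.6% to 79.3% at day 2.5 and 20.9% to 38.1% at day 0.5, did not overlap. The SD over cells was 16.8 points at day 2.5 and 14.2 points at day 0.5, where sampling of the UMIs alone would give 8.40 and 7.82 points.

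**Figure D3:**
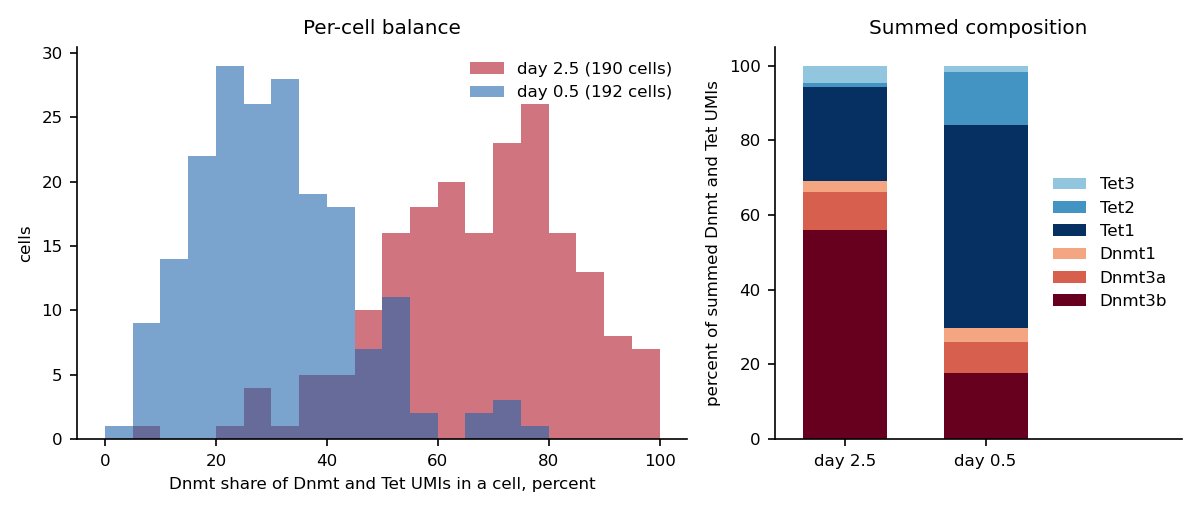
Left, number of cells by Dnmt share of Dnmt and Tet UMIs in 5-point bins, for cells of day 2.5 and of day 0.5 with at least 10 such UMIs. Right, share of each gene in the summed Dnmt and Tet UMIs, where Dnmt3b makes up 55.9% at day 2.5 and 17.6% at day 0.5, and Tet1 25.1% and 54.4%.

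The make-up of both families also differed. Dnmt3b gave 80.9% (79.8% to 81.9%) of Dnmt UMIs at day 2.5 and 59.4% (57.4% to 61.4%) at day 0.5, while Dnmt1 gave 4.35% and 12.003%. Of Tet UMIs, Tet1 gave 81.2% (79.6% to 82.8%) at day 2.5 and 77.3% (76.2% to 78.4%) at day 0.5. The rest was made up differently, since Tet2 gave 4.04% (3.28% to 4.91%) at day 2.5 and 20.1% (19.1% to 21.2%) at day 0.5, and Tet3 gave 14.7% (13.3% to 16.2%) and 2.52% (2.13% to 2.96%). Tet3 UMIs thus outnumbered those of Tet2 at day 2.5, and Tet2 UMIs outnumbered those of Tet3 at day 0.5, with gene lengths of 94.8 and 81.5 kb.

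Across cells of one day, correlations between the genes were weak. Over 7 pairs of genes at each day, Spearman's rho at equal depth lay between -0.17 (Dnmt3b with Dnmt3l) and 0.16 (Dnmt3b with Tet1) in thinned day 2.5 cells. In thinned day 0.5 cells it lay between -0.08 (Tet1 with Tet3) and 0.24 (Tet1 with Tet2). Such values in sparse counts are no finding. Dnmt3b and Tet1 were found together in 79.8% of thinned day 2.5 cells, where their separate shares would give 80.7%, and in 81.96% of thinned day 0.5 cells, where they would give 81.96%.

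The authors' cell tables give each cell a cell cycle class, and 4 classes held at least 10 cells at both days. G1 held 82 cells at day 2.5 and 41 at day 0.5, Early-S 15 and 32, Mid-S 62 and 87, and Late-S 17 and 20. No source used here says how the classes were set. The authors' RNA-based S score does not follow the names, since its median was 0.171 in G1 and -0.120 in Mid-S cells at day 2.5, and 0.261 and 0.006 at day 0.5. A gene was called apart from G1 when its CPM ratio reached 1.5, or the inverse, at both days. Among 7716 genes with at least 100 UMIs the background was 5.94% lower and 3.65% higher in Mid-S, 5.82% lower and 3.07% higher in Late-S, and 4.89% lower and 2.26% higher in Early-S.

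Uhrf1 and Dnmt1, the maintenance pair, were 2 of 9 genes called lower in Mid-S, and Uhrf1 was 1 of 9 called lower in Late-S. None was called higher in any of the 3 classes, and none lower in Early-S. At day 2.5 Uhrf1 was at 100.6 CPM in G1, 80.8 in Early-S, 25.1 in Mid-S and 35.1 in Late-S cells. At day 0.5 it was at 215.5 CPM in G1, 90.7 in Early-S, 46.8 in Mid-S and 111.3 in Late-S cells. Mid-S was the lowest of these 4 classes at both days, with a ratio to G1 of 0.250 (0.158 to 0.382) at day 2.5 and 0.217 (0.155 to 0.302) at day 0.5. In batch 2 alone these ratios were 0.226 at day 2.5 and 0.225 at day 0.5. Dnmt1 in Mid-S over G1 was at 0.589 (0.415 to 0.828) at day 2.5 and 0.572 (0.421 to 0.781) at day 0.5. In Late-S over G1, Uhrf1 was at 0.349 (0.156 to 0.686) at day 2.5, on 9 UMIs, and 0.517 (0.344 to 0.760) at day 0.5.

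Dnmt3b in Mid-S over G1 was at 0.742 (0.688 to 0.799) at day 2.5 and 0.702 (0.612 to 0.806) at day 0.5, which is less than the threshold asks, and Tet1 was at 1.13 and 0.964. The Dnmt share was 72.1% in G1, 73.7% in Early-S, 64.2% in Mid-S and 68.1% in Late-S cells at day 2.5, and 32.2%, 29.5%, 27.3% and 29.9% at day 0.5. Every class of day 2.5 was above every class of day 0.5. With equal weight of the 4 classes the difference between the days was 39.8 percentage points.

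**Figure D4:**
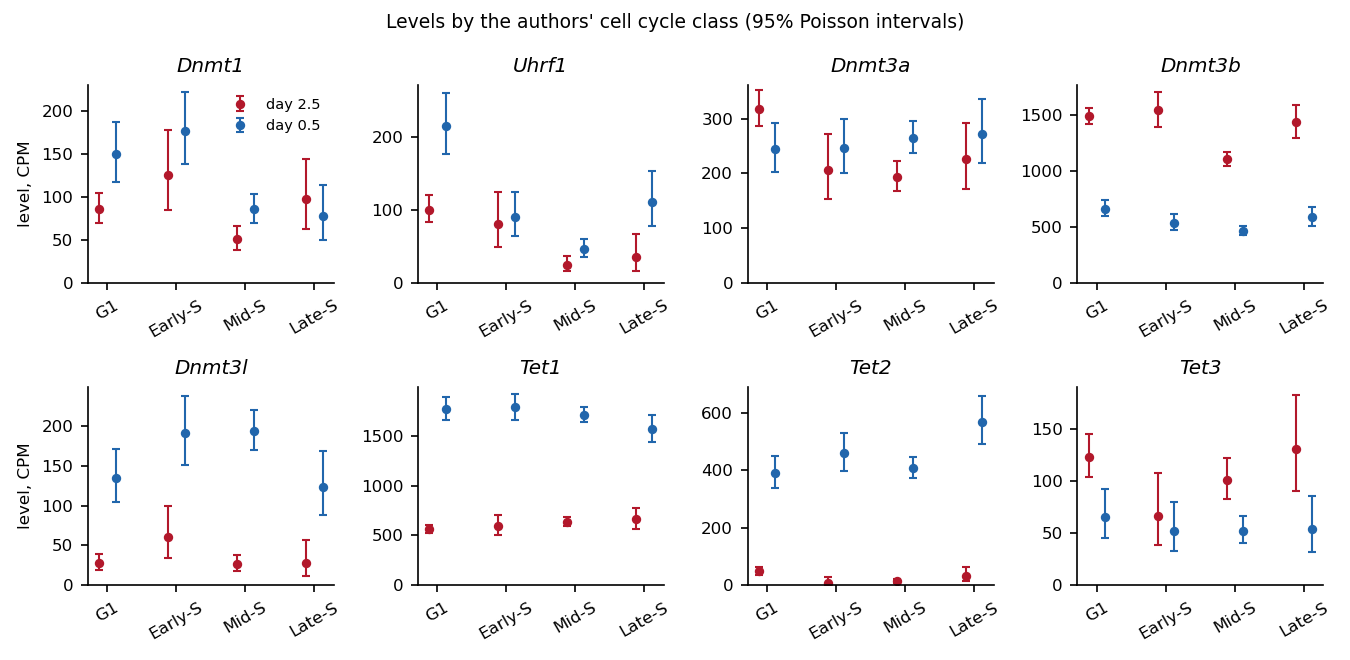
Summed level in CPM by the authors' cell cycle class for 8 of the 9 genes, day 2.5 left of day 0.5 within each class, with 95% exact Poisson intervals. Of the 4 classes plotted, Uhrf1 has its lowest level in Mid-S at both days, 25.1 CPM at day 2.5 and 46.8 CPM at day 0.5, and Dnmt3b is higher and Tet1 lower at day 2.5 in each class.

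The difference between the days was then taken within each of the 4 classes, since their shares differ between the days. Dnmt3b had a ratio between 2.24 and 2.87, Tet1 between 0.318 and 0.423, Tet2 between 0.0176 and 0.124 and Dnmt3l between 0.135 and 0.317. Uhrf1 was between 0.315 and 0.891 and Tet3 between 1.27 and 2.42, so these 6 genes kept one direction in all 4 classes. In Early-S the intervals of Uhrf1 (0.491 to 1.57) and Tet3 (0.628 to 2.52) included 1. The lowest Tet2 ratio, also in Early-S, rested on 2 UMIs at day 2.5. Dnmt1 was at 0.577 in G1 and 0.594 in Mid-S but at 1.26 (0.695 to 2.29) in Late-S, on 25 UMIs at each day. Mbd2 was between 0.917 and 1.99 and was below 1 in 1 class, Early-S. Dnmt3a was above 1 only in G1, at 1.30 (1.06 to 1.62), and at 0.734 (0.614 to 0.876) in Mid-S.

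For 4 of the genes, the genes with the most similar pattern were found over the 20 groups of cells of 1 day, batch and class with at least 5 cells, by Pearson's r on log2 levels among 2924 genes with at least 500 UMIs. These groups share the difference between the days, so a high r is a description. Nearest to Dnmt3b were Hmcn1, an extracellular matrix protein (r = 0.95), Pdzrn3, a ubiquitin ligase (0.94), and the zinc finger gene Zfp608 (0.93). Nearest to Tet1 were Gabbr1, a GABA-B receptor subunit (0.96), Tmem131 (0.96) and Nrp2, a semaphorin receptor (0.95). Tet2 was followed by Zfp600 (0.96), Ncoa3, a coactivator of nuclear receptors (0.95), and Plpp1, a lipid phosphatase (0.94). Dnmt3l was followed by Actn4, an actin crosslinker (0.92), 4930519F16Rik (0.91) and Rif1, a regulator of replication timing (0.90).

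The wider pathway was described by 8 lists of 88 genes, of which 74 were tested, 9 called higher and 20 lower, against the background of 20.7% and 24.6% given above. Of the maintenance and protection genes, 3 of 7 tested were lower and none higher, with a median log2 change of -0.35. Usp7, a deubiquitinase that stabilises Dnmt1, was at 742 CPM at day 2.5 and 919.6 CPM at day 0.5. Hells, a chromatin remodeller, was at 694 and 889 CPM, and Uhrf2, a relative of Uhrf1, at 167.3 and 139.5 CPM, and none of these 3 was called. The 3 lower genes, named after their values were seen, were Trim28, Zfp57, which protects methylation at imprinted regions and stood at 9.73 CPM at day 2.5 and 199.4 CPM at day 0.5, and the ligase gene Lig1.

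Of the base excision and further erasure genes, 2 of 8 were higher and 1 lower, with a median of 0.40. Tdg, the glycosylase that removes oxidised methylcytosine, was at 74.5 CPM at day 2.5 and 54.6 CPM at day 0.5, Parp1 at 53.2 and 74.7 CPM and Xrcc1, a scaffold of base excision repair, at 61.5 and 46.3 CPM, and none was called. Among the readers of CpG sites 3 of 12 were higher and 4 lower (median 0.02). Kdm2b, which binds unmethylated CpG islands, was lower, at 567 CPM at day 2.5 and 1284 CPM at day 0.5, and its relative Kdm2a was higher, at 332 and 218.9 CPM. Mbd5 was called neither, at 361 and 307 CPM.

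Of Mbd2's partners in NuRD, 1 of 11 was higher and none lower (median -0.13). The histone binder Rbbp4 was at 391 CPM at day 2.5 and 337 CPM at day 0.5, Gatad2a at 285 and 312 CPM and Gatad2b at 294 and 271 CPM. The 1 higher gene, named after its value was seen, was Mta1. Of the genes for histone marks that guide Dnmt3 enzymes, 1 of 11 was higher and 3 lower (median 0.15). Nsd1, which methylates histone H3 at lysine 36, was lower, at 587 CPM at day 2.5 and 1102 CPM at day 0.5. Ehmt1 at 609 and 449 CPM and Nsd2 at 247 and 300.3 CPM were called neither.

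In the supply of S-adenosylmethionine, the methyl donor, 2 of 10 genes were lower and none higher (median -0.19). Mat2a, which makes the donor, was at 285 CPM at day 2.5 and 355 CPM at day 0.5, Gldc at 167.6 and 122.6 CPM and Mtr at 121.5 and 113.5 CPM. Of the Tet cofactors and partners, 1 of 8 was higher and 3 lower (median -0.04). Ogt, the glycosyltransferase bound by Tet proteins, was at 374 CPM at day 2.5 and 309 CPM at day 0.5 and Sin3a at 161.6 and 162.1 CPM, while Sall1 was lower, at 87.6 and 198.8 CPM.

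Of 14 germline genes known to be silenced by promoter methylation, 7 were tested and the rest had fewer than 20 UMIs. Of those tested, 4 were lower and 1 higher, with a median of -0.88. Over all genes tested, 24.6% were lower and 20.7% higher. Hormad1, a protein of the meiotic chromosome axis, was at 12.7 CPM at day 2.5 and 259.8 CPM at day 0.5. Its ratio was 0.0489 (0.0347 to 0.0672). Sycp1, of the synaptonemal complex, was at 38.9 CPM at day 2.5 and 76.1 CPM at day 0.5 and Stk31 at 20.4 and 86.97 CPM, and both were lower. The remaining tested genes were named after their values were seen. Dazl, the other lower gene, had 1 UMI at day 2.5 and 47 UMIs at day 0.5, so it was tested only through day 0.5. Tdrkh, the 1 higher gene, had 16.5 and 9 UMIs, a ratio of 1.53 (0.640 to 3.91). Ddx4, at 22.1 and 18.8 CPM, and Mael, at 4.71 and 6.02 CPM, were called neither. Batch 2 and batch 3 over batch 1 differed for Sycp1, with ratios of 0.362 and 0.790, and for Ddx4, with 0.844 and 2.12. DNA methylation itself was not measured in the files used here.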

How the data were processed

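RNA of single cells was read with HiRES. The authors deposited expected counts of UMIs for every gene in each cell, per the file headers, of which 11.1% of those above 0 are not whole. Their cell tables hold counts of UMIs, S and G2M scores, cell cycle classes, batches and pseudotime, per the file headers. Per the submitters' processing notes, reads were placed on GRCm38. How reads were aligned and counted, by strand or not, and how cells were filtered were not given in the sources used here. A further 1101 columns, of cells that belong to no sample here, were not used. A doublet caller was not run.

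UMIs were summed over cells as deposited and given as CPM with exact Poisson intervals, ratios with exact conditional intervals and shares with Clopper-Pearson intervals, all 95%. With 1 sample a day there was no test. Fractions were rounded at random only for thinning. The call rule was run on simulated sums with counting error only. That simulation cannot show how the rule behaves when cells, batches or cultures differ. Of each list, the 3 genes with the most UMIs were named, and for Dnmt3b, Tet1, Tet2 and Dnmt3l the 3 most similar genes. The 9 genes and the lists were chosen with earlier results of these data known. Alternatives covered scaling, pseudocount, thresholds, batches, letters in cell names, thinning, cell cycle classes and the genes of the Dnmt share. Positions and promoters came from RefSeq tables of GRCm38.p6. Versions of Python, numpy, pandas, scipy and matplotlib were recorded with the results.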

Additional observations from a re-analysis of the deposited data

Results flagged for a closer look

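Dnmt3a was the 1 gene of the 9 whose direction differed between the 2 batch contrasts. Its log2 change, day 2.5 over day 0.5, was 0.0802 within batch 2 and -0.271 for batch 3 over batch 1. Its direction also differed between cell cycle classes, as did that of Dnmt1 and Mbd2 in 1 class each. The ratio of Dnmt3a at day 2.5 over day 0.5 was 1.3 in G1, 0.838 in Early-S, 0.734 in Mid-S and 0.832 in Late-S cells. The interval in G1 (1.06 to 1.62) lies above 1 and that in Mid-S (0.614 to 0.876) below it. The difference between classes or batches was not tested, since each day is 1 sample. At day 2.5 Dnmt3a was at 0.611 in Mid-S over G1 cells, and at 0.551 within batch 2, while at day 0.5 it was at 1.08, and at 0.797 within batch 2.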

How the results depend on the processing

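Of 9 log2 changes between the days, 8 kept their sign in all 11 alternatives, and Dnmt3a kept its sign in 8 of 11, between -0.27 and 0.18. The number of genes called lower among the 9 was 5, was 3 at a ratio of 2 and was 4 under median-ratio scaling, where Dnmt1 was lost. Over all genes, 2854 were called higher and 3388 lower. These counts were 1790 and 1898 at a ratio of 2, 1527 and 1574 at a minimum of 100 UMIs, and 5017 and 6324 with no minimum. The difference in Dnmt share of 39.5 percentage points was 36.2 with Dnmt3l included, 41.1 with Dnmt1 left out and 15.3 without Dnmt3b, an alternative chosen after seeing the data. The median difference over cells of 40.2 points was 42.3 at a minimum of 20 UMIs. Each of these settings changes which genes or cells enter the value, and no other cause was tested. The log2 change, with 5 CPM added, ranged between -0.90 and -0.37 for Dnmt1, -1.26 and -0.41 for Uhrf1 and 0.40 and 1.05 for Mbd2. No called gene changed sign in these alternatives, but Dnmt1 in Late-S and Mbd2 in Early-S cells did. Depth limits Tet2 and Dnmt3l at day 2.5, with 96 and 89 UMIs, and the classes with few cells. No paired analysis was possible because the labels give no replicate numbers that pair samples of the days.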

Other observations

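Cells of the authors' M class, 7 at day 2.5 and 15 at day 0.5, stood apart in several of the 9 genes, with low depth (medians of 4819 and 5818 UMIs) and the highest median S scores of any class at each day (0.442 and 0.412). Uhrf1 was at 356 CPM in M-class cells and 59.002 CPM in all other cells at day 2.5, a ratio of 6.04 (3.31 to 10.2) on 15 UMIs. At day 0.5 it was at 299 and 97.6 CPM, a ratio of 3.06 (2.06 to 4.41). Tet1 was lower in M-class cells, with ratios of 0.467 (0.241 to 0.817) and 0.439 (0.349 to 0.545), while Tet2 was at 1.59 (0.190 to 5.90) and 1.08 (0.801 to 1.43). Mbd2 was at 5.62 (3.01 to 9.67) at day 2.5, on 14 UMIs, and 1.41 (0.505 to 3.18) at day 0.5. The part of depth in these ratios was not tested. Without M-class cells the log2 change between the days was -0.68 for Uhrf1, against -0.71 with them, and 0.56 for Mbd2, against 0.62.

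At day 2.5, 83 cells are outside the authors' allele table of the X chromosome, by a rule not given in the sources used here, and their Xist, the RNA that coats the inactive X, was at 83.1 CPM against 2490 CPM in the cells inside it. Dnmt3b was at 1112 CPM outside and 1518 CPM inside, a ratio of 0.733 (0.688 to 0.781), with 0.703 within batch 2, 0.777 within batch 3 and 0.672 among G1 cells. Tet1 was at 0.714 (0.648 to 0.785), with 0.653 and 0.793 in the batches, and Dnmt3a at 0.772 (0.664 to 0.895), with 0.688 and 0.894. Dnmt1 was at 0.784 (0.592 to 1.03), but the batches disagreed, at 0.544 and 1.08. These 4 were at a ratio of 0.8 or less, out of the 7 genes with at least 100 UMIs at day 2.5, against a background of 11.2%. The limit was chosen after the values were seen, so this count is a description and no support. Dnmt1 was above the limit without M-class cells, at 0.8004, and among G1 cells, at 0.802. The Dnmt share was 68.3% (66.5% to 70.02%) outside and 69.6% (68.3% to 70.8%) inside, with overlapping intervals. Among G1 cells it was 68.8% (65.8% to 71.6%) outside and 73.7% (71.7% to 75.6%) inside. These intervals barely miss each other and cover sampling of UMIs only. The SD over day 2.5 G1 cells with at least 10 such UMIs was 16.1 points, where sampling alone would give 8.11. The ratio of Tet1 among G1 cells was 0.857 (0.727 to 1.01). Median depth was 16091 UMIs outside and 15652.5 inside.

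Among day 2.5 cells with the authors' pseudotime, the later 61 and the earlier 61 cells differed in Dnmt3a by a ratio of 0.743 (0.620 to 0.888), but the batches disagreed, at 0.539 in batch 2 and 1.16 in batch 3. Tet3 was likewise at 0.392 in batch 2 and 1.34 in batch 3, and Dnmt3b was at 0.975 (0.905 to 1.05) over both. Dnmt3l was at 0.511 (0.260 to 0.968), on 16 later and 30 earlier UMIs, with 0.650 in batch 2 and 0.351 in batch 3.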
